A study of Mus musculus with 45 samples.

Results

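The comparison described here set neural stem cells (NSCs), sorted from the dentate gyrus (DG) of untreated adult mice, against the whole DG. NSC libraries came from 3 Nestin-GFP mice on a C57Bl6J background, in which regulatory elements of the Nestin gene drive GFP, and whole DG libraries from 3 other mice, called Nestin-GFP in the labels and wild type in the study's legend. Cells were kept as NSCs when they carried GFP and the surface transporter GLAST and lacked CD31, CD45, O1 and O4, which mark endothelium, blood-derived cells and oligodendroglia. The labels give 11 sequenced NSC samples, which are runs of 9 libraries (3 technical replicates from each of 3 mice), and 4 whole DG samples, which are runs of 3 libraries. Together they are 15 of the 45 sequenced samples of the series. These samples were chosen by label alone, and no measured value was used to choose them. The gene lists below were chosen with earlier results of these data known.

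The mice were young adults and received no treatment. As a second set of the same kind, 2 NSC libraries and 3 whole DG libraries from sham mice (a craniectomy and attachment to the injury device without a pulse, hours before) were tested in their own table, which was normalized separately and shares no library with the untreated set. Values of the sham set are given after those of the untreated set, for list medians and for chosen genes.

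In the adult DG, radial glia-like NSCs divide rarely and give rise to intermediate progenitors, which divide and become neuroblasts and then granule neurons. Most RNA of the whole DG comes from mature granule neurons and their synapses, with glia, interneurons and vessels beside them. Vessels hold endothelial cells joined by tight junctions, wrapped by pericytes and, on arterioles, by smooth muscle. A sort for NSCs is therefore set against a tissue in which they are scarce.

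Sorted cells were taken into SMART-Seq HT cDNA and Nextera XT libraries, and whole DG RNA into a directional NEBNext kit at a higher input, so kit, input and population changed together and cannot be told apart. Reads in genes ranged from 9933254 to 18369483 in NSC libraries and from 14492246 to 14837110 in whole DG libraries. CLEAR, the authors' filter that drops transcripts too low for even coverage, left listed values, 0 included, for 9865 to 11520 genes in NSC libraries and 17856 to 19372 in whole DG libraries. Normalized counts summed to 10346330 to 10982464 in NSC libraries and 17380917 to 17600588 in whole DG libraries. Rescaling all libraries to 1 total therefore moved the median log2 fold change over all genes by 0.74. Levels below are normalized counts (reads divided by the library's size factor), averaged over the 3 technical replicates of each mouse, so n = 3 mice per group. Because the samples are bulk RNA, fewer cells of a type and less RNA per cell cannot be told apart.

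Of 17843 unfiltered genes whose mean reached 10 normalized counts, 2414 were higher in NSCs (13.5% of those tested) and 6114 were lower (34.3%). The test was limma on log2(normalized count + 1), two-sided, with Benjamini-Hochberg adjustment over all genes tested, and the threshold was an adjusted p below 0.05 together with a log2 fold change of 1 or more up or down. Unless said otherwise, fold changes are on that log2 scale and adjusted p values are from this limma fit. Over all genes the median was -0.68. With libraries rescaled to 1 total the split was 4486 higher and 4106 lower around a median of 0.06, and with edgeR on the recovered reads 3658 and 4138 around -0.02. Of the 6099 genes listed by CLEAR in all 12 libraries, with a listed 0 counted as a value and no minimum mean, 1312 were higher (21.5%) and 1262 lower (20.7%), with a median of 0.05, and 5785 genes had CLEAR values above 0 in all 12 libraries. Rescaling turned that split to 2500 higher and 643 lower. A share of a gene list near these background shares is not a result about the list. Counts of lists below are of members that passed the filter on low values, and 11 listed genes did not pass it.

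**Figure D1:**
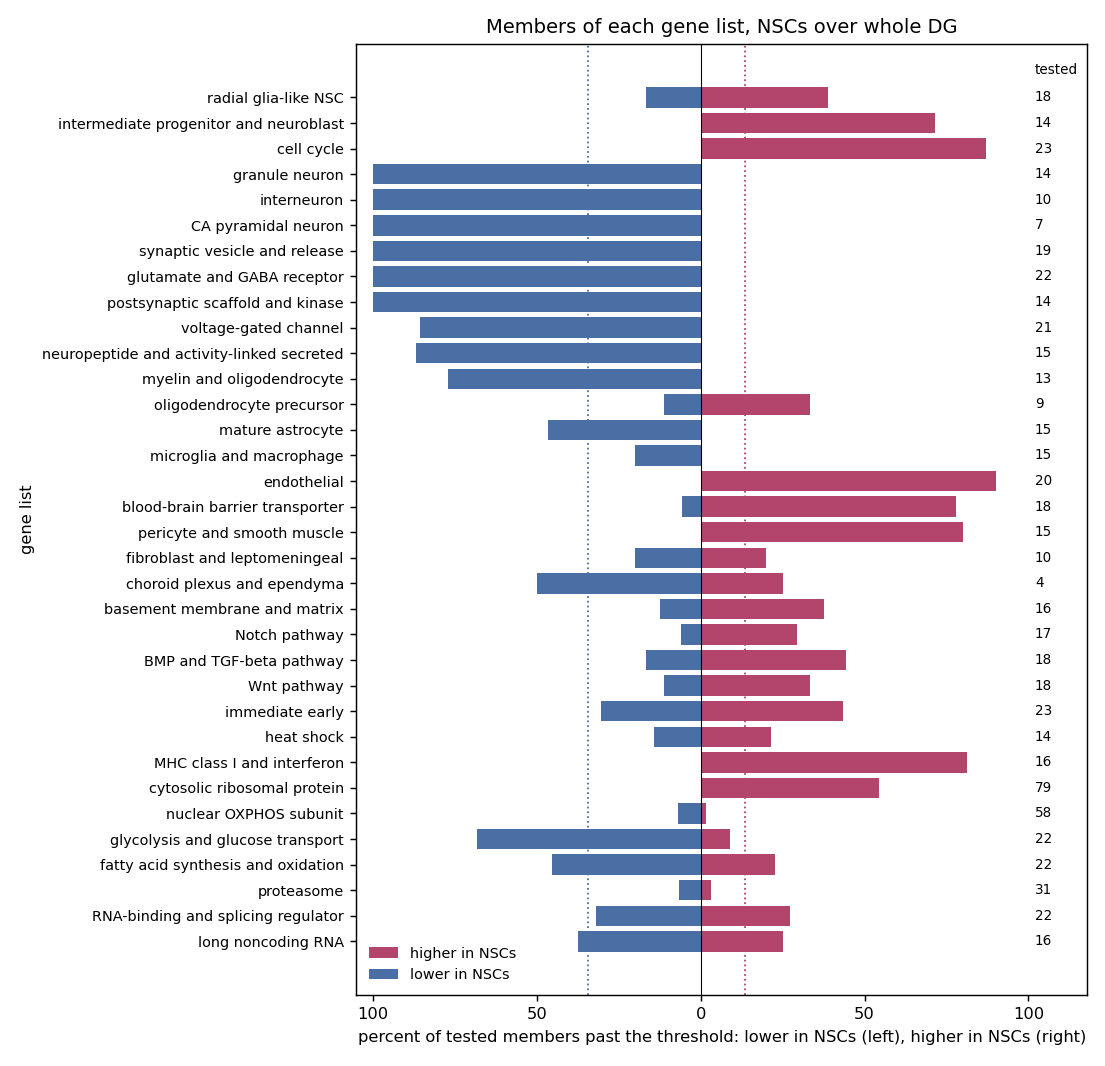
Percent of the tested members of each gene list that were past the threshold, to the right for higher and to the left for lower in NSCs than in whole DG, with the number of members tested beside each bar. Dotted lines mark the share of all 17843 genes that were higher (13.5%) or lower (34.3%); all tested members of 6 neuronal lists were lower, and 18 of 20 endothelial members were higher.

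The genes of the sort gate were examined before the rest. Nes, the intermediate filament whose regulatory elements drive the GFP, had 252, 270.4 and 311 normalized counts in NSCs of the 3 mice, against 80.1, 28.1 and 165 in whole DG. The groups did not overlap, and the log2 fold change was 1.92 with a standard error of 0.630 (adjusted p = 0.0388 from limma). The call for Nes was lost in 5 of the 6 settings that left out 1 mouse, where the fold change was 1.26 to 2.00, and with the technical replicate numbered 1 alone it was 0.94. In sham mice Nes had 0 and 333 normalized counts in NSCs, against 344, 104 and 164 in whole DG, so its direction was the opposite (-3.31) and the difference did not pass (adjusted p = 0.304 from limma). Nes spans 87971078 to 87980451 of chromosome 3 in GRCm38. Slc1a3, which encodes GLAST and spans 8634124 to 8710764 of chromosome 15 in GRCm38, had 5655, 8054 and 11394 normalized counts in NSCs, against 22976, 23529.7 and 21556 in whole DG. All NSC mice were below all whole DG mice although GLAST was a criterion of the sort (log2 fold change -1.50, standard error 0.239, adjusted p = 0.00231 from limma). With edgeR and with rescaled libraries Slc1a3 stood at -0.97 and -0.80, the same direction and no longer past the threshold.

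Pecam1, which encodes CD31 and spans 106654217 to 106750628 of chromosome 11 in GRCm38, had 2809, 3457 and 3359.6 normalized counts in NSCs, against 86.0, 109 and 171 in whole DG. Cells with surface CD31 had been gated out, and yet every NSC mouse stood far above every whole DG mouse (log2 fold change 4.76, a 27.1-fold difference, standard error 0.274, adjusted p = 4.2e-05 from limma). Single NSC libraries ranged from 2242 to 4243.6, so the level did not rest on 1 of them. Ptprc, which encodes CD45, had 51.2, 34.4 and 73.2 normalized counts in NSCs and 27.1, 46.9 and 41.3 in whole DG, with overlap between the groups. Its difference did not pass (0.42, 95% interval -0.72 to 1.57). Ugt8a and Gal3st1, which encode enzymes that make the myelin lipids seen by the O1 and O4 antibodies, did not pass either, at -3.45 (95% interval -8.17 to 1.27) and 0.49 (-0.88 to 1.85). Ugt8a varied between NSC mice, with 206, 0.358 and 238 normalized counts, against 387, 452 and 499 in whole DG.

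**Figure D2:**
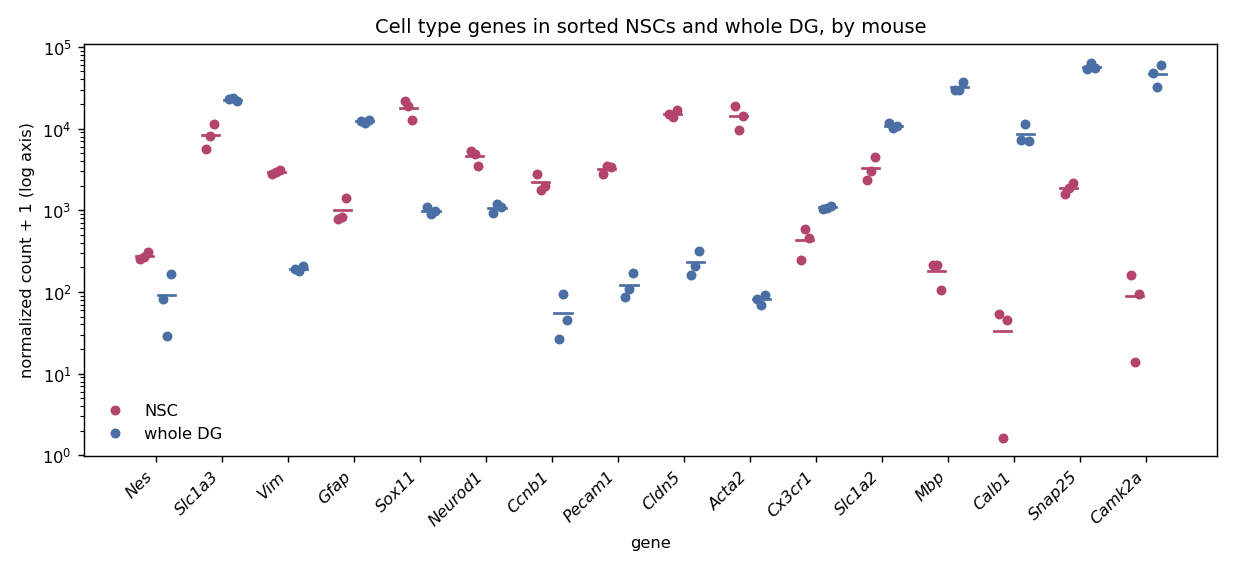
Normalized counts plus 1 (log axis) of 16 genes in each mouse, NSCs to the left and whole DG to the right at each gene, with bars at the means of 3 mice. NSC points lie above whole DG points for Nes, Vim, Sox11, Neurod1, Ccnb1, Pecam1, Cldn5 and Acta2 and below them for the other 8.

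Genes that define radial glia-like NSCs did not move as a block. All 18 members of that list were tested, 7 were higher and 3 lower, and the median was 0.88. With rescaled libraries the counts were 10 and 1, and with edgeR they were also 10 and 1. Vim, an intermediate filament of radial glia that endothelium and mural cells also express, had 2805, 2920.2 and 3093 normalized counts in NSCs and 192, 182 and 204 in whole DG. It was higher in every mouse (3.93, standard error 0.132, adjusted p = 1.25e-05 from limma). Fabp7, a fatty acid binding protein of radial glia, had 2223, 2664 and 4365 normalized counts in NSCs and 913, 747 and 1110.0 in whole DG (1.70, adjusted p = 0.00267). Gfap, the filament shared by radial glia and astrocytes, had 774, 824 and 1406 normalized counts in NSCs and 12420.4, 11841 and 12883 in whole DG. It was 12.8-fold lower in NSCs (-3.68, adjusted p = 5.33e-05), and single NSC libraries ranged from 0.685 to 2023.

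Further members of the list are named here after their values were seen. Prom1, the surface protein CD133 (2.89), and the transcription factors Sox1 (4.36) and Hes1 (3.64) were higher. Nr2e1, a nuclear receptor of stem cells, was lower (-1.75) and lost its call with edgeR, with rescaled libraries and without any 1 whole DG mouse (-1.86 to -1.68). Sox2 stood at 1.38 (adjusted p = 0.0593) and passed with edgeR at 1.80 and after rescaling at 2.06. Thrsp (0.98), Hopx (0.48), Hes5 (0.47), Id4 (0.57), Tfap2c (0.79), Sox9 (-0.79) and Lpar1 (-0.93) did not pass. Without NSC mouse 3, Sox2 (1.65), Tfap2c (2.94), Sox9 (-1.03) and Lpar1 (-1.54) passed, without NSC mouse 1, Hes5 (1.31) and Id4 (1.36) did, and Thrsp passed without NSC mouse 2, whole DG mouse 4 or whole DG mouse 5 (1.01 to 1.09). Of the 18 members, 10 had their highest NSC value in mouse 3. Hopx illustrates this, with 1434, 2329 and 4072 normalized counts in NSCs against 1735, 1662 and 1734 in whole DG.

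Genes of intermediate progenitors and neuroblasts were higher as a group. Of 14 tested, 10 were higher and 0 lower, with a median of 2.31. Sox11, a transcription factor of newborn neurons, had 22042, 18985 and 12681 normalized counts in NSCs, against 1082, 907 and 970.4 in whole DG. Its NSC values varied between mice by less than the distance to whole DG (4.15, standard error 0.211, adjusted p = 2.96e-05 from limma). Neurod1, a factor that drives granule neuron differentiation, had 5376, 4938 and 3457 normalized counts in NSCs and 926, 1178 and 1104 in whole DG (2.08, adjusted p = 0.000242). Dpysl3, a regulator of neurite growth, stood at 2.15. Calb2, which encodes calretinin, stood at 1.04 (adjusted p = 0.0134) and fell under the fold change threshold without NSC mouse 1 (0.93), NSC mouse 2 (0.94) or whole DG mouse 6 (0.82).

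Cell cycle genes were higher in 20 of 23 tested and lower in 0, with a median of 2.50. Ccnb1, the cyclin of entry into mitosis, had 2811, 1769.9 and 1994 normalized counts in NSCs, against 25.9, 93.7 and 44.9 in whole DG. The groups were far apart in every mouse (5.46, standard error 0.476, adjusted p = 0.000183 from limma), while single NSC libraries, each from a small number of cells, ranged from 151 to 4584. Cdk4, a kinase of the G1 phase, had 8933, 7581 and 6040.0 normalized counts in NSCs and 1823, 1805 and 2077 in whole DG (1.97, adjusted p = 0.000134). Ccnd2, a G1 cyclin of neural progenitors, stood at 1.25 and Pcna, the sliding clamp of DNA replication, at 1.21. Cdk1 (5.76) and Top2a (3.15), a mitotic kinase and a topoisomerase of dividing cells, are added after their values were seen. So are Cdkn1a (4.46) and Cdkn1b (2.50), inhibitors of the cell cycle that count among the 20 higher genes. In sham mice Cdkn1b had the other sign (-2.31). Members that did not pass were Mcm6, Ccnd1 and Cdkn1c.

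Promoters of this list are shown because its members moved together. RefSeq promoters on GRCm38.p6, from 250 bases before to 50 after the start, were at hand for 18 of the 23 members. The letters CCAAT, the core of the element bound by NF-Y, were searched on both strands (ATTGG on the other). They occur in 13 of the 18 (72.2%), against 41.1% of 27025 genes with such promoters. TTTGAA, the core of the cell cycle homology region, occurs in 4 of the 18 (22.2%), against 20.2% of all genes. A match describes letters and no binding, and no test was made. In the promoters of Ccnb1 on chr13:100786437-100786736, Cdk1 on chr10:69352863-69353162 and Top2a on chr11:99024140-99024439, all on the minus strand, and of Cdk4 on chr10:127063285-127063584 on the plus strand, capitals mark CCAAT or ATTGG, and Cdk4 has none.
Ccnb1: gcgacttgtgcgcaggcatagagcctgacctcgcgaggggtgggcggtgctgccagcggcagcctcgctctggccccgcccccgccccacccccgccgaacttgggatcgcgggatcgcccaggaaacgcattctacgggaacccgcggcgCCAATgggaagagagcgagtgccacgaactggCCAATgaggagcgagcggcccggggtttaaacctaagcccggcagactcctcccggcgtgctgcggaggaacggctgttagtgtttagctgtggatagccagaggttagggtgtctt
Cdk1: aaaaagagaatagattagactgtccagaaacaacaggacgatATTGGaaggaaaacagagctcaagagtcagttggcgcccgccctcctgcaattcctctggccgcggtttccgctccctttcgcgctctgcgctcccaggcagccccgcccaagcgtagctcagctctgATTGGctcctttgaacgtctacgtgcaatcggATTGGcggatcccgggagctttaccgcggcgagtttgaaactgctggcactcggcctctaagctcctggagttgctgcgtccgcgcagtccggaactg
Top2a: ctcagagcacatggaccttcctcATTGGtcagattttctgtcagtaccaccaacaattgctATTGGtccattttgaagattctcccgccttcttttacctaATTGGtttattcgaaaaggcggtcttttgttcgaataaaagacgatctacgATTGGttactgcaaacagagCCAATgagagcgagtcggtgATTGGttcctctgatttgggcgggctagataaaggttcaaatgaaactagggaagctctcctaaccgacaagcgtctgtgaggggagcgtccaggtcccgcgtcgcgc
Cdk4: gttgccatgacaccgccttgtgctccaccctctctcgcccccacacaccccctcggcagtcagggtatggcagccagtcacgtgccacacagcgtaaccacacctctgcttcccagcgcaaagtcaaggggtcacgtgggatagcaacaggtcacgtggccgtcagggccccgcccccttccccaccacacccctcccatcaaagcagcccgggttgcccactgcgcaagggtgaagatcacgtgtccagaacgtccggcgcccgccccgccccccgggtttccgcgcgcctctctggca

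Vascular genes were the other large group that was higher. Of 20 endothelial genes tested, 18 were higher and 0 lower, with a median of 3.69, and the same 18 to 0 was found with edgeR, DESeq2 and rescaled libraries. Their summed share was 2.02% to 2.99% of all normalized counts in the 9 NSC libraries, against 0.0904% to 0.0965% in the 3 whole DG libraries. In NSCs the largest parts of that sum were Bsg and Itm2a, the latter with 48279 to 59537 normalized counts over the mice, so the share rests largely on them. Cldn5, the main claudin of brain tight junctions, had 15088, 13756 and 16967 normalized counts in NSCs, against 161, 205 and 321 in whole DG. The NSC values lay close together and far above whole DG (6.11, standard error 0.256, adjusted p = 1.9e-05 from limma). Ly6c1, a surface protein of brain endothelium, stood at 6.85, and Itm2a, a membrane protein abundant in brain vessels, at 5.87. Bsg, which encodes basigin, had 105539, 109292 and 131502 normalized counts in NSCs and 8693, 8460.2 and 8707 in whole DG (3.74, adjusted p = 4.87e-06). Reads of Ly6c1 and its near copy Ly6c2 could be split between them, so their separate levels are uncertain.

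The 2 endothelial members that did not pass, named after their values were seen, were Vwf, a clotting factor of larger vessels (0.30, 95% interval -0.72 to 1.31), and Tjp1, a tight junction scaffold that many cell types express (-0.39, -0.80 to 0.02). Transporters of the blood-brain barrier followed, with 14 of 18 tested higher and 1 lower (median 2.54). Slco1a4, an organic anion transporter, had 15632, 13658 and 20074 normalized counts in NSCs, against 346, 410.0 and 437 in whole DG (5.35, adjusted p = 1.1e-05). Slc22a8, another organic anion transporter, stood at 5.09, and Slco1c1, which carries thyroid hormone, at 3.51. Slc3a2, the heavy chain of several amino acid transporters and less particular to vessels, stood at 1.51.

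Pericyte and smooth muscle genes were higher in 12 of 15 tested and lower in 0 (median 4.27), and with DESeq2, edgeR and rescaled libraries in 12 and 0. No criterion of the sort was directed at these cells. Acta2, smooth muscle actin, spans 34241090 to 34255590 of chromosome 19 in GRCm38 and had 18664, 9584 and 14378 normalized counts in NSCs, against 80.1, 69.1 and 91.1 in whole DG. That is a 170.0-fold difference (7.41, standard error 0.262, adjusted p = 1.34e-05 from limma). Tagln, another smooth muscle protein, stood at 6.89. Vtn, a secreted protein that brain pericytes make, had 22955, 17584 and 18025 normalized counts in NSCs and 492, 531 and 656 in whole DG (5.12). Rgs5, a signalling regulator of pericytes, had 9972, 8614 and 9759 normalized counts in NSCs and 239, 239 and 236 in whole DG (5.30). The members that did not pass were Pdgfrb (-0.38, 95% interval -1.30 to 0.54), Notch3 and Anpep. The paper reported that in tissue sections CD31+ endothelial and OLIG2+ oligodendroglial cells also carried the Nestin-GFP. From its heatmap of marker genes it read endothelial cells, pericytes and other major cell types as excluded from the sorted cells. Whether the vascular transcripts came from NSCs or from other cells in the sort was not tested.

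Genes of the immune surface showed the same direction. Of 16 MHC class I and interferon genes tested, 13 were higher and 0 lower (median 3.46). B2m, the light chain of MHC class I, had 4669.9, 7589.7 and 7052 normalized counts in NSCs and 387, 540.0 and 584 in whole DG (3.66). H2-D1, a class I heavy chain whose reads can be shared with related class I genes, stood at 3.16. Ifitm3, an interferon-induced membrane protein that endothelium also expresses, had 5961, 6366 and 7879 normalized counts in NSCs, against 102, 148 and 152 in whole DG (5.65), and Ifitm2 stood at 4.48. The range over NSC mice of the endothelial sum was 238039 to 297249 normalized counts, against 15713 to 16979 in whole DG, and its part in these values was not tested.

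Of 15 microglial genes tested, 3 were lower and 0 higher in NSCs, with a median of 0.04 that moved to 0.74 after rescaling and 0.63 with edgeR. The 3 were Csf1r (-2.79), the receptor on which microglia depend, Tmem119 (-1.60) and the chemokine receptor Cx3cr1 (-1.42). Cx3cr1 had 248, 582 and 450.3 normalized counts in NSCs and 1022, 1079 and 1139 in whole DG. With edgeR and with rescaled libraries only Csf1r of the 3 kept its call, and Tmem119 also lost it without whole DG mouse 4 or 6 (-1.53 and -1.55). Named after their values were seen, C1qa, a complement subunit, had 285, 828 and 526 normalized counts in NSCs and 337, 384 and 521 in whole DG, with overlap. NSC mouse 2 held the highest NSC value for 13 of the 15 members.

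Mature astrocyte genes were lower in 7 of 15 tested and higher in 0, with a median of -1.63. After rescaling 5 were lower and the median was -0.93, and with edgeR 6 were lower and it was -1.14. Slc1a2, the glutamate transporter GLT-1, had 2350.4, 3062 and 4486 normalized counts in NSCs, against 11769, 10149 and 10633 in whole DG (-1.77, adjusted p = 0.000956 from limma). Mlc1 (-2.34), a membrane protein of astrocyte endfeet, was lower as well. Gja1, a gap junction protein of astrocytes, had 1822, 3207 and 5803 normalized counts in NSCs and 7716, 7762 and 7208 in whole DG. Its call (-1.22, adjusted p = 0.035) was lost with edgeR, DESeq2 and rescaled libraries and without any 1 mouse other than NSC mouse 3. Apoe, added after its values were seen, had 41966, 59546 and 82599 normalized counts in NSCs and 66289, 59867 and 59217 in whole DG (-0.06). For 14 of the 15 members NSC mouse 3 was the highest of the 3, so the distance of this list from whole DG differed between mice.

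Myelin genes were far lower, in 10 of 13 tested, with 0 higher and a median of -6.66 (-6.03 with the 3 members at 0 in every NSC library set to their bounds). Those 3 members, and other members with low NSC values, passed the filter on low values only through whole DG, so the count is a description. Mbp, a main protein of compact myelin, had 213, 215 and 104 normalized counts in NSCs, against 30026, 29283 and 37459.5 in whole DG. It was 189-fold lower (-7.56, standard error 0.300, adjusted p = 1.67e-05 from limma). Mobp stood at -8.86 and Cnp, an enzyme of oligodendrocytes that had 1166, 1208 and 1272 normalized counts in NSCs and 4997, 4755 and 5505 in whole DG, at -2.06. Genes of oligodendrocyte precursors did not follow myelin. Of 9 tested, 3 were higher and 1 lower (median 0.72). Olig2, the transcription factor of the lineage, had 82.3, 109.7 and 172 normalized counts in NSCs and 4.71, 9.37 and 10.9 in whole DG (3.71), Vcan stood at 2.70 and Neu4 at 1.38, and Tnr was lower (-2.06).

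Genes of mature neurons were lower with few exceptions. All 14 granule neuron genes tested were lower (median -5.71), as were all 10 interneuron genes (-8.51), all 7 tested genes of CA pyramidal neurons (-5.49, or -5.13 with the 3 members at 0 in every NSC library set to their bounds), 19 of 19 synaptic vesicle and release genes (-4.94), 22 of 22 glutamate and GABA receptor genes (-5.02), 14 of 14 postsynaptic genes (-4.73) and 18 of 21 voltage-gated channel genes (-3.48). In these 7 lists 0 genes were higher, also with edgeR and with rescaled libraries. With edgeR 4 of the 7 genes of CA pyramidal neurons were lower. Many of these genes passed the filter on low values only through whole DG, where they are high, so their counts are a description.

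Prox1, the transcription factor that fixes granule neuron identity, was the mildest of the granule genes named. It had 1475, 1093 and 640.4 normalized counts in NSCs, against 3560.0, 4347 and 4497 in whole DG (-2.02, adjusted p = 0.00174 from limma). Calb1, which encodes the calcium buffer calbindin of mature granule neurons, had 52.3, 0.643 and 44.4 normalized counts in NSCs and 7271, 11484 and 7016 in whole DG (-9.05). C1ql2, a synaptic organizer made by granule neurons, stood at -6.75 and Rbfox3, which encodes NeuN, at -4.66. Genes with NSC values near 0, such as Calb1, have fold changes that depend on the pseudocount.

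Snap25, the SNARE protein of synaptic vesicle fusion, spans 136713453 to 136782428 of chromosome 2 in GRCm38 and had 1599, 1858 and 2167 normalized counts in NSCs, against 53407, 64014 and 54950.5 in whole DG. It was 30.8-fold lower and yet present in every NSC library, at 1086 to 2438 (-4.94, adjusted p = 6.75e-06 from limma). Syt1, the calcium sensor of release, had 126, 99.2 and 90.1 normalized counts in NSCs and 21062, 23549.6 and 18808 in whole DG (-7.65). Vamp2 stood at -5.28 and Syp, which encodes synaptophysin, at -5.06. Among receptors, Gria2, an AMPA receptor subunit that young neurons also express, had 3939.7, 3772 and 3006 normalized counts in NSCs and 24933, 27932 and 24776 in whole DG (-2.86). Gria1 (-5.95), Grin1, the subunit shared by NMDA receptors (-6.87), and Gabra5 (-8.43) were further down.

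Camk2a, the kinase of excitatory synapses, had 159, 12.9 and 92.7 normalized counts in NSCs, against 48011, 31884 and 60762 in whole DG (-9.58). Camk2b (-6.83), the calcineurin subunit Ppp3ca (-5.15) and the scaffold Dlgap1 (-4.30) were lower too. The interneuron genes Gad1, Gad2, Cck and Npy, which encode GABA synthesis and neuropeptides, stood at -8.66, -10.31, -9.50 and -8.55, with means of 42.1, 0.531, 18.6 and 10.7 normalized counts in NSCs. Fibcd1 of CA1 neurons was at 0 in all 9 NSC libraries and averaged 885 in whole DG, so it was at least 275-fold lower, taking 3 reads in the shallowest NSC library as the floor. Among channels, Scn2a stood at -5.35, Scn3a at -4.64 and Kcna1 at -6.56. Among 15 neuropeptide and secreted genes 13 were lower and 0 higher (median -7.10, or -6.81 at the bounds), with Nptx1, a synaptic pentraxin, at -10.52, Scg2 at -6.15 and Chgb at -4.25. Some of these genes also passed the filter on low values only through whole DG, so this count too is a description.

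Pairs of paralogues, 1 member known from neurons and 1 more widely expressed, were set side by side. In 24 of the 26 pairs the neuronal member was lower in NSCs, in 1 it was higher and in 1 it did not pass. The widely expressed member was higher in 6, lower in 13 and not past the threshold in 7. In the 6 pairs Snap25 and Snap23, Vamp2 and Vamp3, Slc2a3 and Slc2a1, Tubb4a and Tubb6, Stmn3 and Stmn1, and Ndrg4 and Ndrg1 the neuronal member was lower and the other higher. Pairs were chosen with earlier results of these data known, and no test was made over them.

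Slc2a1, the glucose transporter GLUT1 of vessels, had 2977, 5118 and 3862 normalized counts in NSCs and 610.0, 791 and 868 in whole DG (2.38). Its neuronal relative Slc2a3 had 239, 1.37 and 63.9 normalized counts in NSCs and 3885, 4783 and 3469 in whole DG (-6.91). Per base of exon, the wider member made up 98.5% ± 1.97 of this pair in NSCs and 28.0% ± 5.28 in whole DG (SD, n = 3 mice each). For Vamp3 with Vamp2 that share was 82.8% ± 4.02 in NSCs and 3.17% ± 0.665 in whole DG, and for Stmn1, a microtubule regulator of dividing and immature cells, with Stmn3 it was 89.6% ± 0.711 and 29.1% ± 1.79. The pair of RNA-binding proteins Elavl4 and Elavl1 went the other way. Elavl4, which newborn neurons express, had 3261, 2483 and 2146 normalized counts in NSCs and 797, 626 and 548 in whole DG (2.00), and Elavl1 stood at -0.52 (95% interval -1.21 to 0.17).

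**Figure D3:**
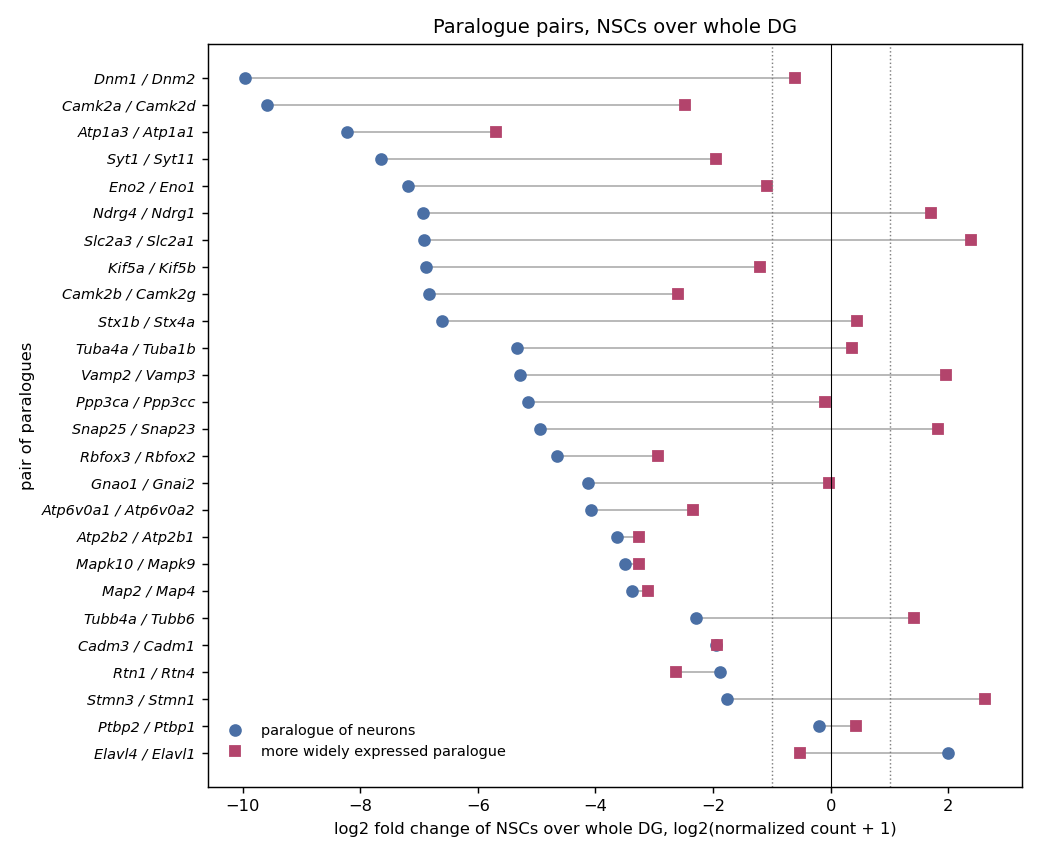
Log2 fold change of NSCs over whole DG for both members of 26 pairs of paralogues, circles for the member known from neurons and squares for the more widely expressed member, with dotted lines at 1 and -1. The circle lies left of the square in 24 of the 26 pairs, the exceptions being Rtn1 with Rtn4 and Elavl4 with Elavl1.

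Immediate early genes split in both directions, with 10 of 23 tested higher and 7 lower (median 0.60). The 7 lower are near the share of all genes that were lower (34.3%). Fos, a subunit of the AP-1 factor, had 4617, 2481 and 2632 normalized counts in NSCs, against 95.4, 205 and 206 in whole DG (4.28, standard error 0.388, adjusted p = 0.000213 from limma). Its partner Jun had 1618, 1599.7 and 1684 normalized counts in NSCs and 7135, 6536 and 7481 in whole DG (-2.11). Btg2, an antiproliferative gene, was higher (1.27). Arc, which neurons induce with activity, had 0, 26.5 and 0 normalized counts in NSCs and 2002, 2339 and 2895 in whole DG (-9.63). Named after their values were seen, Atf3 (3.74) and Klf4 (6.26) were higher, and Egr1 (-1.46) and Egr3 (-8.29) were lower, Egr1 not past the threshold with edgeR (-0.99) or after rescaling (-0.76).

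Heat shock genes showed no common direction, with 3 of 14 higher, 2 lower and a median of -0.25 that turned to 0.45 after rescaling and 0.24 with edgeR. Hspb1, a small heat shock protein that vessels express, had 1581, 2949.8 and 3181 normalized counts in NSCs and 16.5, 25.8 and 42.5 in whole DG (6.49). Hspa1b, an inducible HSP70 whose reads can be shared with its near copy, stood at 1.56, and Hsph1 at -2.73. Hsp90ab1 was lower (-1.11) and not past the threshold with edgeR (-0.61) or after rescaling (-0.41).

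Glycolysis and glucose transport genes were lower in 15 of 22 tested and higher in 2, with a median of -1.90 (-1.20 after rescaling). Aldoa, a glycolytic aldolase, had 8306, 8078 and 8491 normalized counts in NSCs, against 59073, 57748 and 58239 in whole DG (-2.82, adjusted p = 4.09e-06 from limma). Pkm, pyruvate kinase, stood at -2.09, Tpi1 at -1.47 and Eno1 at -1.08. The calls of Tpi1 and Eno1 were lost with edgeR and after rescaling. Genes of fatty acid synthesis and oxidation divided, 5 of 22 higher and 10 lower, and their median of -0.46 turned to 0.24 after rescaling and 0.08 with edgeR. Scd2, a desaturase, had 1708, 1504 and 2569 normalized counts in NSCs and 18534, 19119 and 18668 in whole DG (-3.32), Fasn, the fatty acid synthase, stood at -3.81, and Cpt1c, the neuronal carnitine transferase, at -2.82.

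Among genes of basic cell machinery, 43 of 79 cytosolic ribosomal protein genes were higher and 0 lower (median 1.09), against 76 and 0 after rescaling and 73 and 0 with edgeR. Rplp0 had 9157, 7763 and 7809 normalized counts in NSCs and 3342, 3527 and 3947 in whole DG (1.19), and Rpl7 stood at 1.70. Ribosomal protein genes have many processed pseudogenes, so their single values are uncertain. Of 58 nuclear OXPHOS subunits, 1 was higher and 4 lower, with a median of -0.05 that turned to 0.65 after rescaling. Of 31 proteasome genes, 1 was higher and 2 lower, with 15 and 0 after rescaling. The few calls among OXPHOS and proteasome genes lie under the background shares and move with the scaling.

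Signalling genes were divided. Of 18 BMP and TGF-beta genes tested, 8 were higher and 3 lower (median 1.12). Id1, an inhibitor of differentiation that BMP signals induce in stem cells and in endothelium, had 1561, 1715 and 2414 normalized counts in NSCs and 71.8, 62.1 and 139.7 in whole DG (4.43). Id3 (2.88), Id2 (1.85) and Eng, the endothelial coreceptor endoglin (3.14), were higher too. Of 17 Notch pathway genes, 5 were higher and 1 lower (median 0.30). The ligand Jag1 had 258, 200.2 and 479.5 normalized counts in NSCs and 34.2, 18.7 and 48.6 in whole DG (3.17). Heyl, a target in mural cells, stood at 3.29, the glycosyltransferase Mfng at 2.89 and the ligand Dll4 of vessel tips at 2.21, a call lost without whole DG mouse 4 or 5 (2.08 and 2.00). Of 18 Wnt pathway genes, 6 were higher and 2 lower (median 0.74). Lef1, a transcription factor of the pathway, stood at 2.87, Tcf7l2 at 1.46 and Reck, a coreceptor for vessel Wnt signals, at 1.05. The call of Reck was lost without NSC mouse 1 or whole DG mouse 4 or 6 (0.96 to 1.02), and with the technical replicate numbered 1 alone it stood at -1.73. Wnt7b, a ligand of neurons, was lower (-4.53).

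Of 16 basement membrane and matrix genes, 6 were higher and 2 lower (median 0.54). Sparc, a matrix protein of vessels and glia, had 15444, 17242 and 17669 normalized counts in NSCs and 3904, 3053 and 3291 in whole DG (2.30). Fn1, fibronectin, stood at 2.92, and Agrn (-1.91) and Lamb1 (-2.81) were lower. Of 10 fibroblast and leptomeningeal genes, 2 were higher and 2 lower, and the median of -0.48 turned to 0.23 after rescaling. Ptgds, the prostaglandin D synthase of the meninges, ranged from 93.9 to 12698 normalized counts over single NSC libraries, and its fold change of -1.11 was not past the threshold with edgeR (-0.64), after rescaling (-0.39) or without any 1 mouse other than NSC mouse 3 (-1.13 to -0.69). Apod stood at 2.04, Igf2 at 2.48 and Col1a1 at -2.38. Only 4 of 9 choroid plexus and ependymal genes passed the filter on low values. Of those, Rarres2 was higher (1.56), and Kl (-7.70) and Ttr were lower. Ttr was at 0 in all 9 NSC libraries with 42.4, 38.7 and 9.72 normalized counts in whole DG, at least 9.40-fold lower by the floor given above.

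RNA regulators and long noncoding RNAs held genes of both directions, with lower calls near the share of all genes (34.3%). Of 22 RNA-binding and splicing regulators, 6 were higher and 7 lower, and the median of -0.21 turned to 0.49 after rescaling. Srsf3 (1.52) and Hnrnpa1 (1.62), general splicing factors, were higher, and the neuronal regulators Celf4 (-5.05) and Rbfox1 (-4.52) were lower. Of 16 long noncoding RNAs, 4 were higher and 6 lower, and the median of -0.21 turned to 0.48 after rescaling. Malat1, an abundant nuclear RNA, had 147332, 183153 and 162937 normalized counts in NSCs and 22693, 33734 and 29279 in whole DG (2.54). Meg3 had 58.8, 60.9 and 38.7 normalized counts in NSCs and 5057, 3696 and 5118 in whole DG (-6.44), and Snhg11 (-6.98) and Peg13 (-4.31) were lower as well.

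The largest differences were taken by a rule on size. Among CLEAR genes the 10 largest rises were 8430408G22Rik, Acta2, Aspn, Nostrin, Cyyr1, Tagln, Ly6c1, Gm13861, Pglyrp1 and Plac9b. 8430408G22Rik headed them, with 2641, 1988 and 3050.5 normalized counts in NSCs and 2.36, 18.7 and 14.6 in whole DG (7.96). Nostrin, which traffics nitric oxide synthase in endothelium, stood at 7.18. The 10 largest falls were 2900097C17Rik, Eno2, Synj2, Ndrg4, Cacnb1, Nsf, Nos1ap, Atp1b1, Aplp1 and Wasf1. Eno2, the neuronal enolase, had 75.0, 86.3 and 88.5 normalized counts in NSCs and 11747, 11888 and 12974 in whole DG (-7.18). Nsf, the ATPase that recycles SNARE proteins, had 529.6, 522 and 437 normalized counts in NSCs and 37304, 40035 and 39567 in whole DG (-6.30).

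Among genes without a CLEAR value in some library, the 10 largest falls were Tmem151a, Sv2b, Slc17a7, Rasgrp1, Nefl, Cpne7, Camkv, Icam5, Myo5b and Diras2. Slc17a7, the vesicular glutamate transporter VGLUT1, had 0, 0.652 and 6.56 normalized counts in NSCs and 9987, 3385 and 15374 in whole DG. Myo5b was at 0 in all 9 NSC libraries and averaged 2719 in whole DG, at least 845-fold lower by the same floor. The 10 largest rises were Ly6c2, Gpr20, Gm9946, Car5a, Gm28116, RP23H23.2, Ccm2l, Olfr558, Depdc1a and Pla1a. Gpr20 was at 0 in all 3 whole DG libraries and had 223, 331 and 175 normalized counts in NSCs, at least 66.7-fold higher against 3 reads in the shallowest whole DG library.

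In the sham mice, 3646 of 18049 genes were higher in NSCs (20.2%) and 5608 lower (31.1%), from 2 NSC and 3 whole DG mice. Of the 2329 genes higher in untreated NSCs that were tested in sham, 1427 (61.3%) were higher there too and 138 were lower. Of 5911 lower in untreated NSCs, 3462 (58.6%) were lower there too and 160 were higher. Counted the other way, 39.1% of the genes higher and 61.7% of those lower in sham NSCs were called the same way in untreated NSCs. The 2 sets share kits and their confounding with the population, so this overlap does not separate population from kit.

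Neuronal, cell cycle, neuroblast and vascular lists had medians of like sign in the 2 sets. The endothelial list had 15 of 20 higher and 0 lower in sham (median 2.73), and pericyte and smooth muscle genes 10 of 15 and 0 (median 2.78). The sham NSC mice differed from each other there. Acta2 had 1147 and 21396 normalized counts in sham NSCs, against 37.8, 9.36 and 56.6 in sham whole DG, and Cldn5 had 4159.6 and 11176, against 462, 281 and 519.6. With 2 sham NSC mice such a spread cannot be assigned to mouse or sort.

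**Figure D4:**
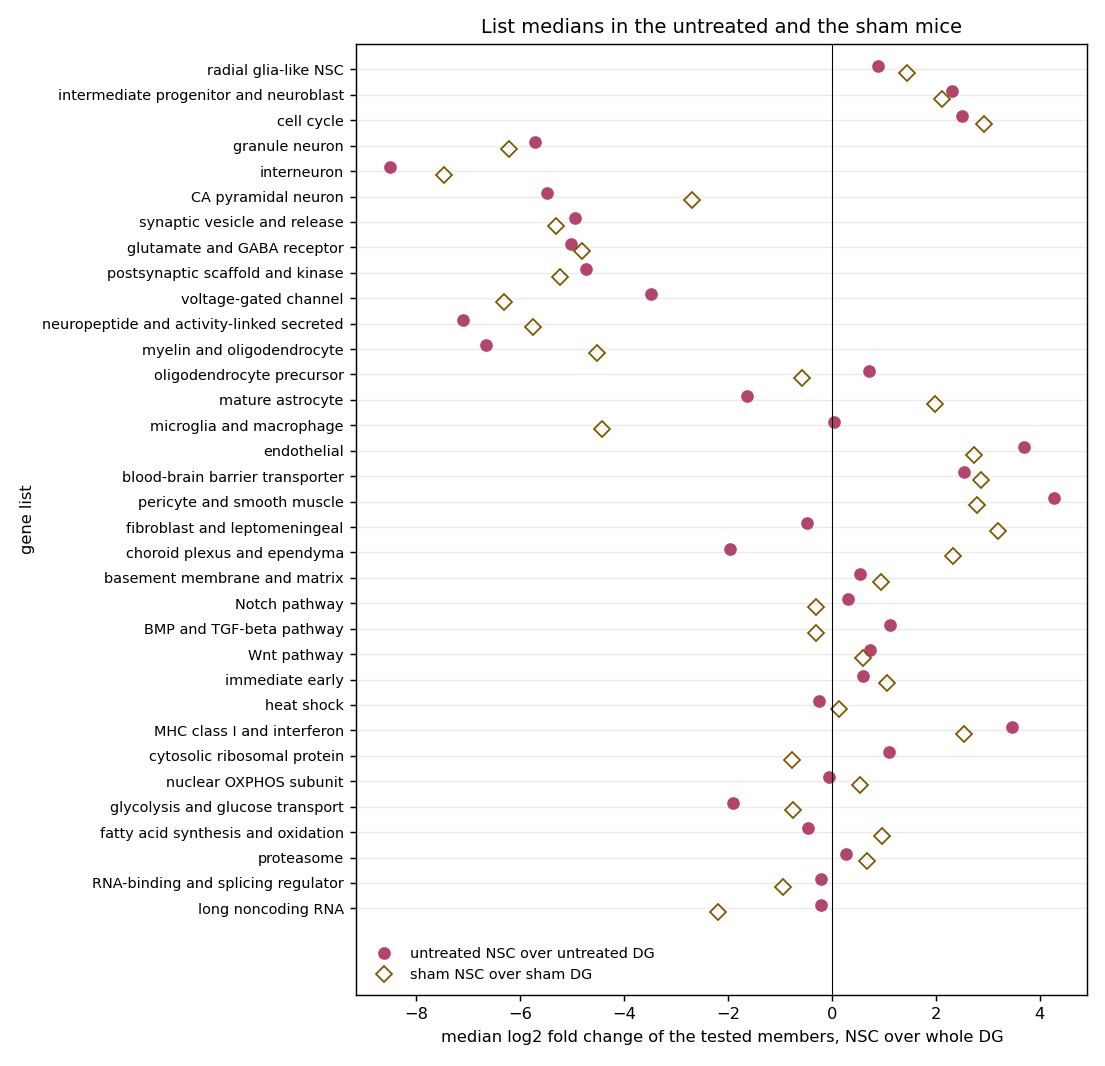
Median log2 fold change of the tested members of each list, NSC over whole DG, in untreated mice (filled circles, 3 mice against 3) and in sham mice (open diamonds, 2 against 3), each from its own table. Mature astrocyte genes lie at -1.63 in untreated and 1.98 in sham mice, and microglial genes at 0.04 and -4.43.

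Other lists stood differently in the 2 sets. Mature astrocyte genes were lower in 7 of 15 and higher in 0 in untreated mice, and lower in 0 and higher in 9 in sham mice. Slc1a3 had 80201 and 36091 normalized counts in sham NSCs, against 9564, 8271 and 8999.5 in sham whole DG (2.59, adjusted p = 0.00295 from limma). Microglial genes were lower in 10 of 15 in sham mice (median -4.43), and C1qa had 7.70 and 0 normalized counts in sham NSCs, against 592, 679 and 775 in sham whole DG. Of the 79 cytosolic ribosomal protein genes, 0 were higher and 28 lower in sham mice (median -0.76). Those 28 lower calls are near the share of all genes that were lower in sham mice (31.1%), while 20.2% were higher. The median of all genes in sham mice was -0.32, and rescaling to 1 total moved it by 0.28. Of 10 fibroblast and leptomeningeal genes, 7 were higher and 0 lower in sham mice (median 3.19, against -0.48 in untreated mice). The median of oligodendrocyte precursor genes changed sign, from untreated to sham (0.72 to -0.58). That of choroid plexus and ependymal genes was -1.95 over 4 tested genes and 2.33 over 8 in sham mice. These medians are over different genes and cannot be compared. Ttr (-0.21), Kl (-4.45) and Rarres2 (2.69), tested in both sets, kept their signs in sham mice. The median of BMP and TGF-beta genes was 1.12 over 18 genes and -0.30 over 20 in sham mice, with 6 higher and 7 lower there. That sham value is near the median of all genes. Fatty acid genes also changed sign (-0.46 to 0.96), with 11 of 22 higher and 6 lower in sham mice. So did nuclear OXPHOS (-0.05 to 0.54, 13 higher and 0 lower in sham mice), Notch pathway (0.30 to -0.30) and heat shock genes (-0.25 to 0.14). Among genes named above with the untreated value alone, Hes1 (-1.84), Olig2 (-2.14), Egr1 (2.06), Mlc1 (1.98), Gja1 (3.68) and Ptgds (3.74) were called the other way in sham mice. Sox1 (-0.48), Nr2e1 (0.63), Gfap (0.02), Jag1 (-0.02), Reck (-0.46), Vcan (-0.56), Rpl7 (-0.45), Cnp (0.62), Col1a1 (1.49) and Eno1 (0.99) had the other sign in sham mice without passing the threshold. Some named genes that had not passed in untreated mice also had the other sign in sham mice. They included Sox2 (-1.74), Id4 (-1.88), Sox9 (3.22), Lpar1 (0.98), Apoe (3.62), Ptprc (-4.50), Gal3st1 (-3.20), Pdgfrb (1.02) and Notch3 (-0.37). The difference between the 2 sets was not tested, since their tables were normalized separately.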

How the data were processed

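RNA of sorted NSCs (3 untreated mice, 3 technical replicates each) and of whole DG (3 other untreated mice) was sequenced by the authors. Per the labels and the study's methods, adapters were trimmed with AdapterRemoval, ribosomal, mitochondrial and PhiX reads were removed, the rest was aligned to the mouse genome with HISAT2 and counted with featureCounts without strand against GENCODE M14, and counts were divided by DESeq2 size factors. The submitters' processing notes name CASAVA 1.8.2 and HISAT2 2.0.6. The deposited tables therefore hold a normalized signal, that is reads divided by a size factor and not raw reads, once for all genes and once with the authors' CLEAR filter applied per library, except that the sham whole DG columns of the filtered table list a value for all 49922 genes used here. A different sort input and library kit on each side of the comparison can change coverage and detection.

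The table of all genes has 50600 rows. Of these, 678 share 310 symbols and were left out, which leaves 49922 genes, of which 47474 have 1 entry in GENCODE M21, the source of coordinates and exon lengths on GRCm38. Counting without strand means that reads of overlapping or antisense genes cannot be told apart, and near-identical copies can share reads. Of the sham columns, 1 matched no sample and was not used.

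Technical replicates were averaged per mouse and taken as log2(value + 1). Genes with a mean of the 2 group means of at least 10 were tested with limma 3.58.1 (trend, two-sided) in R 4.3.3, with Benjamini-Hochberg adjustment over all genes tested. The threshold was an adjusted p below 0.05 together with a log2 fold change of 1 or more either way. P-values measure the spread between mice. Genes listed by CLEAR in all 12 libraries, 0 included, were fitted separately for their own counts, with no minimum mean, while counts of CLEAR detection take values above 0. Single genes and lists use the unfiltered fit.

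All values in each library were whole multiples of 1 step (within 0.05 of a step), so reads were recovered and tested with edgeR 4.0.16 and DESeq2 1.42.0 as alternatives. Other alternatives were pseudocounts, filters, a common total, adjusted p alone, limma without the trend, a spread shared with the other sorted population, the technical replicate numbered 1 alone, and each mouse left out. Floors take 3 reads in the shallowest library of a group and cover counting error only. The fits were tested on simulated data. Tables and plots used Python 3.11.15, numpy 2.4.6, pandas 2.3.3 and matplotlib 3.10.9.

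Gene lists and their members were chosen with earlier results of these data known. Genes named are the 10 largest rises and falls among CLEAR genes and among other genes (past the threshold, no overlap between mice, mean of 100 or more in the group where they were higher), up to 4 genes of each list that passed with the highest mean, or else 2 with the highest mean, both members of each pair, and the genes of the sort gate. Others are marked in the text. Itgam, whose symbol stands more than once, was not used. Some genes that this rule names are not reported here.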

Additional observations from a re-analysis of the deposited data

Results flagged for a closer look

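For 6 named genes the untreated and the sham mice gave opposite calls with no overlap between NSCs and whole DG in either set. The difference between the sets was not tested, because their tables were normalized separately, and the sham set has only 2 NSC mice. In untreated mice the calls of Gja1 and Ptgds were lost with edgeR (-0.61 and -0.64), with DESeq2 (-0.71 and -0.73), after rescaling (-0.52 and -0.39) and without any 1 mouse other than NSC mouse 3, and that of Slc1a3 was lost with edgeR (-0.97) and after rescaling (-0.80).

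Slc1a3, which encodes GLAST, had a log2 fold change of -1.50 in untreated mice and 2.59 in sham mice. Gja1, a gap junction protein of astrocytes, stood at -1.22 in untreated mice and 3.68 in sham mice, with 38248 and 17635 normalized counts in sham NSCs, against 1951, 2265 and 1893 in sham whole DG. Mlc1 stood at -2.34 in untreated mice and 1.98 in sham mice, with 16306 and 6878 normalized counts in sham NSCs, against 2728, 2545 and 2797 in sham whole DG. Ptgds, a prostaglandin synthase, stood at -1.11 in untreated mice and 3.74 in sham mice, with 72786 and 29780.2 normalized counts in sham NSCs, against 4279, 2149 and 4629 in sham whole DG. For these 4 genes the sham mouse with the higher value was the same.

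Cadm1, an adhesion molecule, had 1775, 1671 and 1567 normalized counts in untreated NSCs, against 7069, 6532 and 5604 in untreated whole DG (-1.93). In sham mice it had 6261 and 4243.8 in NSCs, against 2728, 2785 and 2214 in whole DG (1.01). Olig2 went the other way, at 3.71 in untreated mice and -2.14 in sham mice, where NSCs had 49.5 and 128 normalized counts and whole DG had 400.5, 318 and 354.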

How the results depend on the processing

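Of the counts, those of CLEAR genes moved to 2500 higher and 643 lower with libraries rescaled to 1 total, to 865 higher and 762 lower when a CLEAR value was also required in the IPC libraries (sorted intermediate progenitors, so fewer genes were tested), to 2058 higher with adjusted p alone, and to 1983 lower with the technical replicate numbered 1 alone. Those of unfiltered genes moved to 4486 higher after rescaling, 3658 with edgeR and 3635 with DESeq2. In sham mice, 2839 genes were lower among those listed by CLEAR in all 5 libraries, a filter that acted through the 2 NSC libraries alone, since the sham whole DG columns list every gene. Requiring a CLEAR value above 0 in at least 7 of 9 NSC libraries and 0 whole DG libraries gave 16 genes in place of 5, and, chosen after seeing the data, 3 whole DG libraries and at most 2 of 9 NSC libraries gave 4075 in place of 2024. Leaving out each mouse in turn gave 1298 to 1434 higher and 1231 to 1472 lower CLEAR genes, and 2034 to 2512 higher and 4937 to 6267 lower unfiltered genes. In the sham set, leaving out each whole DG mouse in turn gave 2702 to 2816 higher and 4285 to 4375 lower genes. Leaving out 1 of the 2 sham NSC mice leaves no spread between NSC mice, so those counts are not given. Reck, at 1.05, stood at -1.73 with the technical replicate numbered 1 alone, and no other named gene turned. Of the named genes, 17 lost their call with edgeR, 12 with DESeq2, 20 after rescaling and 21 with that technical replicate alone. The causes were not tested. Where whole DG or NSC reads are at 0, the floor is 3.64 normalized counts for whole DG and 3.22 for NSCs. No paired analysis was possible because NSCs and whole DG came from different mice.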

Other observations

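Detection after the CLEAR filter differed between the groups. A CLEAR value above 0 was found for 5814 genes in all 9 NSC libraries and for 15377 genes in all 3 whole DG libraries. Of the 5814 genes, 5 had such a value in 0 of the 3 whole DG libraries. Of the 15377 genes, 2024 had such a value in 0 of 9 NSC libraries. NSCs had to pass in 9 libraries and whole DG in 3, so the counts 5 and 2024 cannot be compared directly. The 5 were Myct1, Car5a, Ly6i, Hist1h2ak and I830127L07Rik, named because they are all of them. Myct1, known from endothelium, had 248, 332 and 274 normalized counts in NSCs, against 0, 4.69 and 4.86 in whole DG. In sham mice it had 0 and 33.7 in NSCs, against 5.60, 0 and 7.89 in whole DG. Hist1h2ak, a histone gene, had 23.4, 27.6 and 33.1 normalized counts in NSCs and 0 in all 3 whole DG libraries.

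Called genes differed in length. The median exon length was 2.64 kb for genes higher in NSCs, 4.91 kb for genes lower in NSCs and 3.53 kb for genes that were not called, and the library kits cannot be told apart from the populations here.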
